A study of Mus musculus with 6 samples.

Results

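The Pou5f1 locus was taken as every cytosine position listed from 5000 bp before to 5000 bp after the gene (chromosome 17, 35506032 to 35510777, plus strand, GRCm38). It held 113 of the 448072 positions listed in any of the 10 tables of the series. Of these, 10 lay upstream of the gene, 86 in the gene body and 17 downstream. The assay was reduced representation bisulfite sequencing, a method that enriches CpG-dense restriction fragments before methylation is read, applied to cultured mouse cell lines, for which the labels name no treatment, age or passage. The cell types were iPSC, which are induced pluripotent stem cells made from germline stem cells (2 lines, independent of each other), gPSC, which are pluripotent stem cells of germline origin (2 lines, likewise independent), GSC, the germline stem cells themselves, a cultured counterpart of spermatogonial stem cells (1 line), and ESC, embryonic stem cells (1 line). All 6 samples are of strain OG2, so every library, the ESC one included, comes from cells that carry the Pou5f1 reporter. The series title puts the question whether reprogramming with transcription factors leaves a memory of the starting cell.

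For every sample but ESC the authors deposited 1 list of positions more methylated (hyper) and 1 of positions less methylated (hypo) than in some other library, called the reference below. No table says which library that was; ESC is assumed, because no table belongs to it. A value is the authors' difference, library minus reference, in percentage points of methylation. The tables hold only positions with a q of at most 0.01 and a difference of at least 25 points, so an unlisted position can be unchanged or unmeasured. Read numbers per position and methylation levels are not in the tables and the depth is unknown. The authors' q compares 1 library with 1 library, positions of a fragment share reads, and GSC has no second line. In such bulk DNA a partial difference cannot be told apart between a share of cells, of alleles or of reporter copies. The tables hold no expression values, so the cell types were not checked against marker genes.

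Pou5f1 encodes the POU-domain transcription factor Oct4, which with Sox2 holds embryonic stem cells in the pluripotent state and is also made in germ cells. Its expression is driven by a promoter without a TATA box, a proximal enhancer used mainly after implantation and in cultured epiblast cells, and a distal enhancer used in naive pluripotent cells and in the germline. The promoter is known to gain DNA methylation as somatic cells differentiate and to lose it when cells are reprogrammed. The OG2 reporter is a transgene that expresses a green fluorescent protein from upstream Pou5f1 sequence from which the proximal enhancer was deleted. Reads of the reporter and of the endogenous gene take the same genome coordinates wherever their sequences are the same, and the tables do not separate them. How far the reporter's sequence extends is not given in the sources used here.

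RefSeq (GRCm38.p6) gives Pou5f1 a start at the first base of the gene and a second one inside the gene, 2775 bp further on, and both 300 bp promoter windows are shown because they hold the CpGs nearest to these starts. Capitals mark the CpG dinucleotides with a listed position in any library.
Gene start window, chr17:35505782-35506081, plus strand: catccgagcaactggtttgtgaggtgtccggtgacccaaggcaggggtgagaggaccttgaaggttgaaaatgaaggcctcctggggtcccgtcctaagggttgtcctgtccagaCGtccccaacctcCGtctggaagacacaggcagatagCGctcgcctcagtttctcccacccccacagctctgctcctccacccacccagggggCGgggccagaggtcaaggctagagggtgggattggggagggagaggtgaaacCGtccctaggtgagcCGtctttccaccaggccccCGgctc
Internal start window, chr17:35508557-35508856, plus strand: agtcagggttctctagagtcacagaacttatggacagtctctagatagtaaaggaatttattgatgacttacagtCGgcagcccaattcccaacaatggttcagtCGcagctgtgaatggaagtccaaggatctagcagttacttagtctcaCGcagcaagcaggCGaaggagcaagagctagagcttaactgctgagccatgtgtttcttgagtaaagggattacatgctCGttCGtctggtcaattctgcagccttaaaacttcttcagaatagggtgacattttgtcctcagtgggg

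The gene start window holds 11 CpGs, of which 7 had a listed position, and the internal window holds 6, all 6 with a listed position. Of the 9 listed positions in the gene start window, 8 fell on the C or the G of a CpG, and the other was the last base of the window, a C whose neighbour is not in it. All 8 in the internal window fell on a CpG. Listed positions were on the G as often as on the C (4 and 4 in each window), although the tables mark every position as plus strand, so the 2 cytosines of a CpG, one per strand, appear as positions 1 bp apart. A GC box, the motif GGGCGG recognised by Sp-family factors, lies 45 to 40 bp upstream of the gene start, and its CpG was listed. An AGGTCA half-site, the kind of sequence bound by nuclear receptors such as Nr5a2 and Nr6a1, lies 33 to 28 bp upstream and holds no CpG. Counting both strands, GGGCGG was present in 35.7% and AGGTCA in 16.3% of the 32851 promoter windows of the same length. Neither motif occurred in the internal window.

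**Figure D1:**
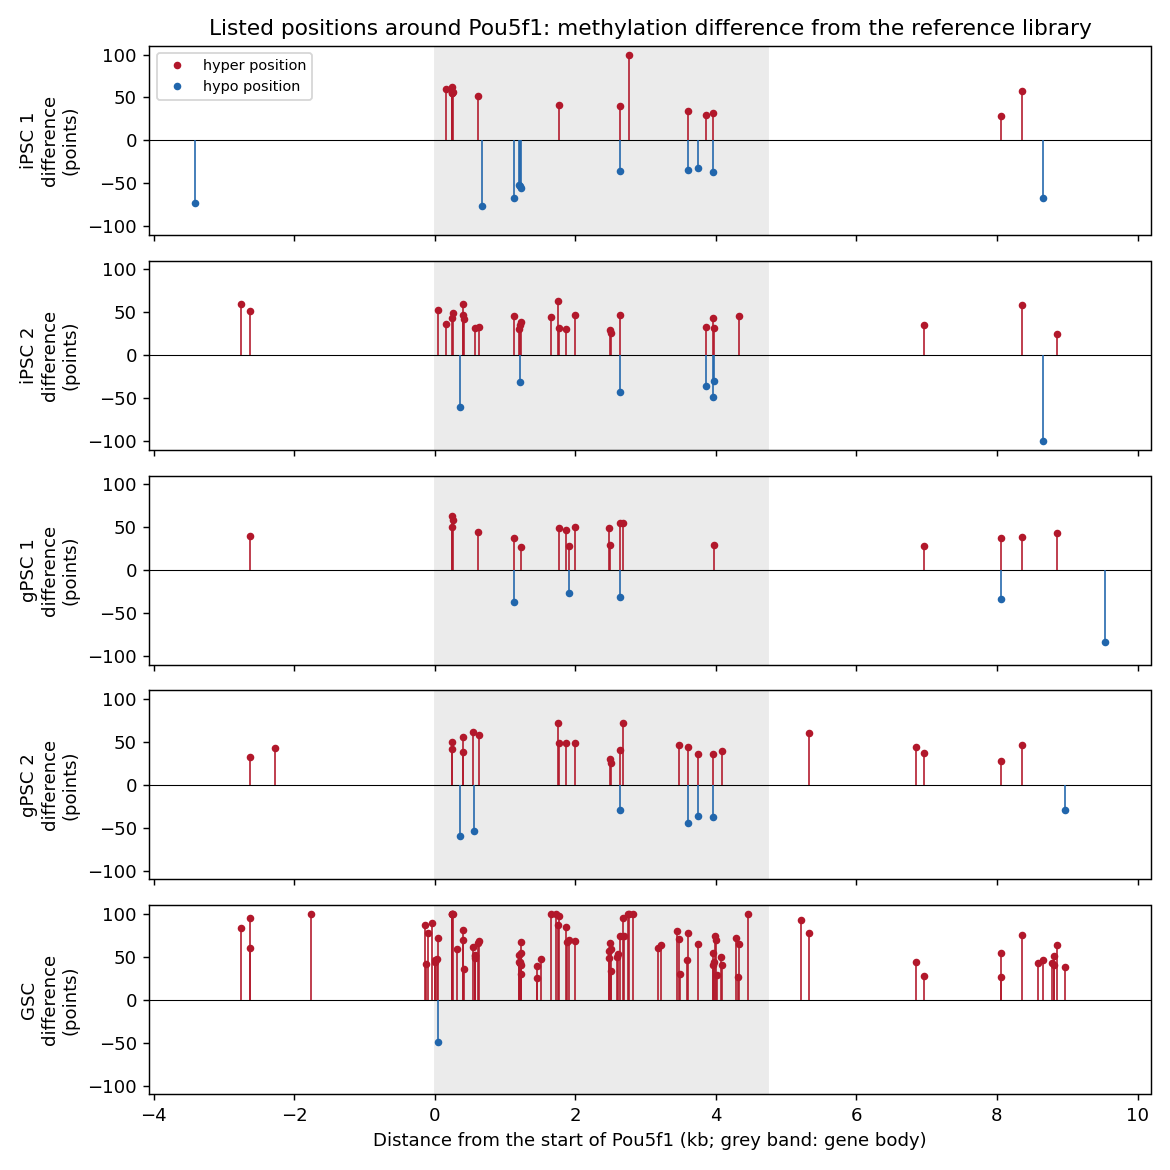
Methylation difference from the reference in percentage points (vertical axis) at each listed position of the Pou5f1 window, by distance from the gene start in kb (horizontal axis), for iPSC 1, iPSC 2, gPSC 1, gPSC 2 and GSC; red points are hyper and blue points hypo positions, and the grey band is the gene body. GSC has 92 hyper positions spread over the window and 1 hypo position, while the lines have 14 to 30 hyper and 5 to 11 hypo positions.

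Across the whole window, methylation was higher than in the reference at most listed positions of GSC and at far fewer positions of the lines. In iPSC 1, 14 positions were hyper, 12.4% of the 113, against 26.4% of all positions of the series, and 11 were hypo (9.73% against 5.64%). In iPSC 2, 30 were hyper (26.5% against 29.4%) and 7 hypo (6.19% against 8.18%). In gPSC 1, 20 were hyper (17.7% against 30.1%) and 5 hypo (4.42% against 6.60%), and in gPSC 2, 26 were hyper (23.0% against 31.1%) and 7 hypo (6.19% against 4.57%). GSC had 92 hyper positions (81.4% against 47.3%) and 1 hypo position (0.885% against 9.78%). The hyper share lay below that of the whole series in each line and above it in GSC. The 113 positions include 47 that were hyper in GSC and listed in no line. The high count of GSC thus lowers the share of each line, which alone does not show few hyper positions there. Among positions listed in the line itself, the hyper share lay above that of the series in iPSC 2 (81.1% against 78.2%). It was below the series in iPSC 1 (56.0% against 82.4%), gPSC 1 and gPSC 2 (78.8% against 87.2%). The median −log10 p of the hyper positions in the window was 3.26 in iPSC 1, 4.69 in iPSC 2, 3.24 in gPSC 1, 3.78 in gPSC 2 and 5.99 in GSC, against 5.51, 4.90, 5.50, 5.99 and 6.30 over the series. Median differences of the hyper positions were 53.9 points in iPSC 1, 42.3 in iPSC 2, 43.5 in gPSC 1, 43.7 in gPSC 2 and 60.7 in GSC.

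Upstream of the gene the lines had few listed positions, and those nearest to the start were listed in GSC only. The 6 distal positions, between 3412 and 1758 bp upstream, lie within Gm32362, a long non-coding RNA gene (chromosome 17, 35500641 to 35505737) that RefSeq places on the opposite strand, head to head with Pou5f1, and the authors' feature column gives none for them. At 2628 bp upstream the difference was 52.0 points in iPSC 2 (q = 2.04e-09), 39.2 in gPSC 1 (q = 2.45e-05), 33.0 in gPSC 2 (q = 6.41e-05) and 95.7 in GSC (q = 1.99e-22), and iPSC 1 was not listed. This was the only upstream position listed in more than 2 libraries. At 2762 bp upstream iPSC 2 had 59.2 points and GSC 83.3. Positions 2634 and 1758 bp upstream were listed only in GSC, with 60.2 and 100 points. The 2 others were each listed in a single line, with 43.2 points in gPSC 2 at 2266 bp and −73.3 points in iPSC 1 at 3412 bp upstream. Between 1758 and 135 bp upstream no position was listed in any library over 1622 bp, the longest such gap of the window.

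The 4 positions of the proximal promoter, which the authors' feature column labels as promoter, were hyper in GSC and listed in no line. GSC had 87.5 points at 135 bp upstream (q = 0.000225), 41.7 at 121 bp (q = 0.00663), 77.8 at 97 bp (q = 0.000226) and 88.9 at 42 bp, the C of the GC box (q = 0.00228). A difference of 88.9 points leaves at most 11.1% methylation for the reference at that cytosine. In all, the upstream part had 0 hyper positions in iPSC 1, 2 in iPSC 2, 1 in gPSC 1, 2 in gPSC 2 and 8 in GSC.

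**Figure D2:**
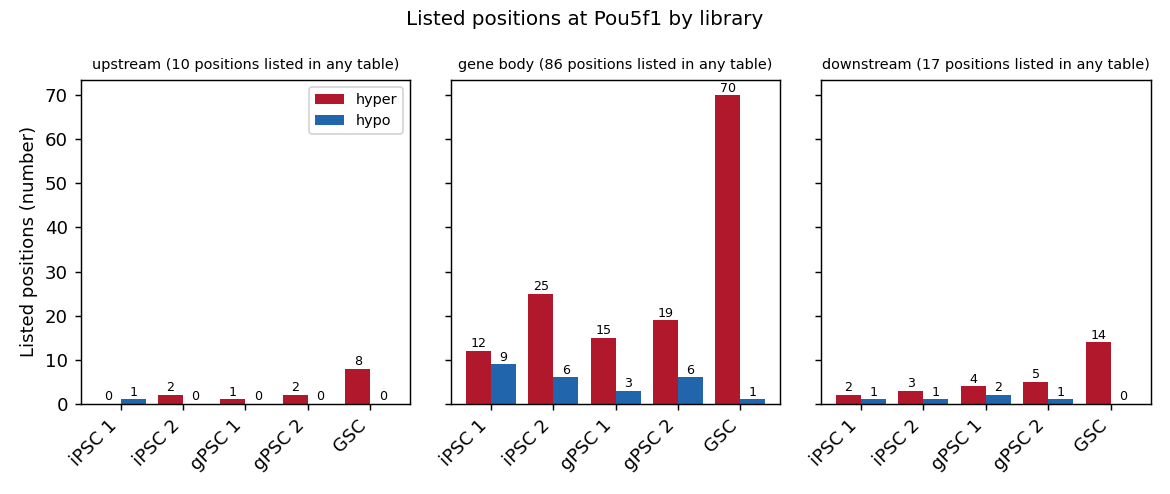
Number of hyper (red) and hypo (blue) positions listed in iPSC 1, iPSC 2, gPSC 1, gPSC 2 and GSC (horizontal axis) upstream of Pou5f1, in its gene body and downstream. GSC has the most hyper positions in each part, with 8, 70 and 14.

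In the gene body iPSC 1 was listed as hyper at 12 positions, iPSC 2 at 25, gPSC 1 at 15, gPSC 2 at 19 and GSC at 70 of the 86. Hypo positions numbered 9 in iPSC 1, 6 in iPSC 2, 3 in gPSC 1, 6 in gPSC 2 and 1 in GSC. The mean difference over the listed positions of the gene body was 8.39 points in iPSC 1, 24.8 in iPSC 2, 31.9 in gPSC 1, 25.4 in gPSC 2 and 61.8 in GSC. The mean of iPSC 1 turned to −7.79 points with q of at most 0.001, and without positions within 50 bp of an opposite one the mean was 40.8 points in iPSC 2 and 46.6 in gPSC 2. With differences of at least 50 points, hyper positions of the gene body numbered 7 in iPSC 1, 3 in iPSC 2, 5 in gPSC 1, 6 in gPSC 2 and 46 in GSC. Where positions 1 bp apart with the same direction were counted once, GSC had 55 hyper positions in the gene body. The counts of the lines could not change, since their pairs 1 bp apart all had opposite directions and were still counted in both. The authors' feature column labels 17 of the 86 as exon and promoter, 39 as intron and promoter and 30 as all 3, since it joins several overlapping transcripts. In GSC the mean difference was 64.8 points at the exon and promoter positions, 59.5 at the intron and promoter positions and 62.7 at the others. In the same order it was 58.0, −11.5 and 12.1 points in iPSC 1, 33.6, 18.4 and 26.1 in iPSC 2, 56.9, 25.3 and 29.3 in gPSC 1, and 25.3, 17.0 and 38.1 in gPSC 2. GSC was about equally high in each label, with 13, 29 and 28 hyper positions in the same order. The values of the lines were spread more widely, but they rest on fewer positions and mix directions. At the exon and promoter positions gPSC 1 had 3 hyper ones. At the intron and promoter positions iPSC 1 had 5 hyper and 8 hypo ones, and at the others 2 hyper and 1 hypo.

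Just inside the gene, between 10 and 50 bp after the start, GSC was hyper at 10, 11, 26 and 50 bp, with 46.9, 44.4, 47.4 and 72.4 points, and hypo at 49 bp with −49.3 points, its single hypo position in the window. The position at 44 bp was listed only in iPSC 2 (52.9 points).

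Further into the stretch labelled as exon and promoter stood a run of positions that were hyper in the lines too. At 253 bp after the start the difference was 55.6 points in iPSC 1, 42.9 in iPSC 2, 50 in gPSC 1, 42.3 in gPSC 2 and 100 in GSC. At 247 bp it was 55.6 in iPSC 1, 62.5 in gPSC 1, 50 in gPSC 2 and 100 in GSC, and at 262 bp iPSC 1 had 56.25, iPSC 2 48.6, gPSC 1 58.3 and GSC 100 points. At 243 bp iPSC 1 had 62.5 points and GSC 100. A difference of 100 points can arise only where the reference is at 0% and GSC at 100%, so at these 4 positions the differences of the lines are their methylation levels, provided that the tables share the reference. Levels in the lines then lay between 42.3% and 62.5%, below the 100% of GSC and above the 0% of the reference. At such positions a line is listed only at least 25 points above the reference, and no level can exceed that of GSC. A place between the reference and GSC was thus largely set by this choice of positions. A nearby position, 161 bp after the start, was hyper in both iPSC lines (60.2 and 36.9 points) and in no other library. Another, at 356 bp, was hypo in iPSC 2 and in gPSC 2 with −60.0 points each.

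**Figure D3:**
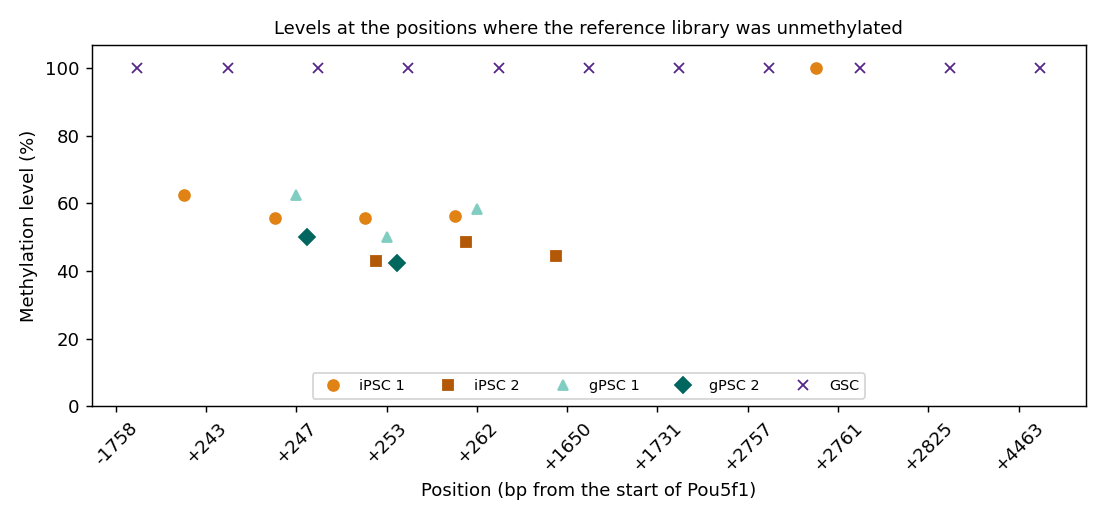
Methylation level in percent (vertical axis) at the 11 positions of the Pou5f1 window where a difference of 100 points sets the reference library to 0%, by position in bp from the gene start (horizontal axis, not to scale), with a marker for each library listed there. GSC is at 100% at each of them, and the levels of the lines lie between 42.3% and 62.5%, except for iPSC 1 at 2761 bp, which is at 100%.

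GSC had 11 such positions in the window, 1 upstream and 10 in the gene body. The others were listed in GSC alone, except that iPSC 2 had a level of 44.4% at 1650 bp after the start and iPSC 1 one of 100% at 2761 bp. Where a line has no value there, its level is unknown, since a difference under 25 points or too few reads would both leave it unlisted. The size of the difference is fixed at these 11 positions, and GSC had a median −log10 p of 4.97 there (range 2.32 to 8.92), against 3.81 at the 29026 such positions of the series. A part of read numbers in the count of listed positions was not tested.

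Between 1125 and 1225 bp after the start, in positions labelled as intron and promoter, iPSC 1 and GSC were listed in opposite directions at 1203, 1214 and 1221 bp. At 1125 bp iPSC 1 had −67.2 and gPSC 1 −37.2 points, and at 1126 bp iPSC 2 had 45.6 and gPSC 1 37.2. GSC was listed at neither. At 1224 and 1225 bp only GSC was listed, with 67.2 and 30.1 points. At 1203 bp the difference was −52.2 points in iPSC 1 and 44.0 in GSC. At 1214 bp it was −52.8 in iPSC 1, −31.7 in iPSC 2 and 43.3 in GSC, and at 1221 bp −55.9 in iPSC 1 and 40.2 in GSC. With a shared reference these values confine its level at 1203 bp to between 52.2% and 56.0%, that of iPSC 1 to at most 3.85% and that of GSC to at least 96.2%. At 1214 bp iPSC 2 would lie between 21.2% and 25%. The neighbouring bases 1204, 1215 and 1222 bp after the start were hyper in iPSC 2 (30.9, 34.7 and 38.2 points) and GSC (52.4, 44.2 and 53.9 points), and the last of them in gPSC 1 (26.4 points) as well. They were not listed in iPSC 1, so the low levels given for iPSC 1 hold for a single base of each pair. At 1214 and 1215 bp together the differences of iPSC 2 summed to 3.03 points. In GSC both bases of each of these pairs were thus hyper, and in no line were both.

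From 1650 to 1993 bp after the start, in positions labelled as exon, intron and promoter, the directions were alike in all libraries apart from 1 hypo position of gPSC 1. At 1767 bp the difference was 41.2 points in iPSC 1, 32.2 in iPSC 2, 49.2 in gPSC 1, 49.0 in gPSC 2 and 97.4 in GSC, with a q of 1.51e-05 in iPSC 1 and smaller ones in the other libraries. A difference of 97.4 points leaves at most 2.63% for the reference, so the level of each line there equals its difference to within 2.63 points. At 1875 bp the values were 30.8 points in iPSC 2, 46.7 in gPSC 1, 49.3 in gPSC 2 and 84.8 in GSC. At 1993 bp they were 46.4, 49.9, 48.7 and 68.7 points in the same libraries. At 1758 bp iPSC 2 had 63.5, gPSC 2 72.5 and GSC 87.5 points. In this stretch GSC was above each line that was listed beside it.

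At the internal start, the G of a CpG shortly before it, 2631 bp after the gene start, was hyper in every library, with 39.6 points in iPSC 1, 47.3 in iPSC 2, 55.2 in gPSC 1, 40.5 in gPSC 2 and 74.4 in GSC. The C of the same CpG was hypo in the 4 lines, where iPSC 1 had −35.2, iPSC 2 −43.1, gPSC 1 −30.9 and gPSC 2 −29.5 points, and GSC was not listed. This C was the only position of the window that was hypo in all 4 lines. At 2677 bp gPSC 1 had 54.7 points, gPSC 2 71.7 and GSC 94.7. GSC was also hyper at 2600, 2601, 2690, 2757 and 2761 bp, with 49.2, 52.9, 74.6, 100 and 100 points, where only iPSC 1 was listed beside it, at 2761 bp.

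Towards the end of the gene, from 3482 to 4463 bp after the start, GSC was listed as hyper only, with no hypo position. At 3959 bp iPSC 1 had a difference of 32.0 points, iPSC 2 of 43.8, gPSC 2 of 35.7 and GSC of 54.8. At the next base iPSC 1 had −36.8 points, iPSC 2 −48.7, gPSC 2 −37.0 and GSC 40.3. The values at that base confine the reference to between 48.7% and 59.7% and GSC to at least 89.0%. The lines are confined there to at most 22.9% in iPSC 1, 10.99% in iPSC 2 and 22.7% in gPSC 2. These bounds hold for a single base and not for the pair. Over both bases the differences summed to −4.84 points in iPSC 1, −4.84 in iPSC 2 and −1.26 in gPSC 2, against 95.2 in GSC. The largest difference of this stretch in GSC was 100 points, at 4463 bp.

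Downstream of the gene, iPSC 1 had 2 hyper positions, iPSC 2 had 3, gPSC 1 had 4, gPSC 2 had 5 and GSC had 14 of the 17. All but 2 of the 17 lie within Tcf19, a neighbouring gene on the minus strand that encodes a protein linked to cell cycle progression (chromosome 17, 35512730 to 35516837). At 3608 bp after the end of Pou5f1, within Tcf19, the difference was 57.1 points in iPSC 1, 58.3 in iPSC 2, 38.7 in gPSC 1, 46.2 in gPSC 2 and 75.9 in GSC, each with a q of at most 0.000147. In iPSC 1 and iPSC 2 the position 8650 bp after the gene start was hypo, with −66.7 and −100 points, and no other library was listed there. The downstream values of GSC, with a mean of 51.6 points, were lower than its upstream mean of 79.4.

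Adjacent listed bases behaved differently in the lines and in GSC. Of the pairs of listed bases 1 bp apart, iPSC 1 had 3, iPSC 2 had 5, gPSC 1 had 4 and gPSC 2 had 5, all with opposite directions, against 1 of 17 pairs in GSC. In 3, 5, 3 and 3 of the pairs of these lines the 2 differences summed to within 5 points of 0. At 3603 and 3604 bp after the start, for example, the values were −34.7 and 34.7 points in iPSC 1 and −43.8 and 43.8 in gPSC 2. In the 16 pairs of GSC with a shared direction the sums ran from 65.0 to 106 points, and 12 of them lay between 90 and 110. Of the hypo positions in the window, 3 of 11 in iPSC 1, 5 of 7 in iPSC 2, 4 of 5 in gPSC 1, 5 of 7 in gPSC 2 and the 1 of GSC were next to a hyper position. Without such pairs the gene body was left with 6 hypo positions in iPSC 1, 1 in iPSC 2, 0 in gPSC 1, 1 in gPSC 2 and 0 in GSC. The part of the strand of a base in these values was not tested, and outside the 2 promoter windows no sequence was used to tell C from G.

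**Figure D4:**
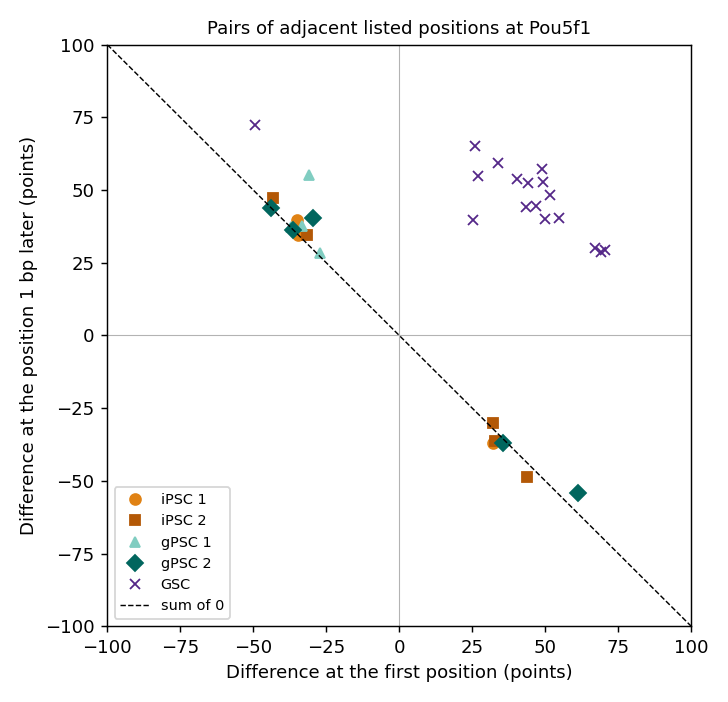
Difference in points at the first (horizontal axis) and at the second (vertical axis) of 2 listed positions 1 bp apart in the Pou5f1 window, with a marker for each library; the dashed line is a sum of 0. All 17 pairs of the lines have opposite signs, with sums of −4.84 to 24.3 points, and 16 of the 17 pairs of GSC lie in the area where both are higher than the reference.

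Set beside GSC, the lines were hyper at a minority of its hyper positions. Of the 92 hyper positions of GSC in the window, iPSC 1 was hyper at 12 (13.0%), iPSC 2 at 25 (27.2%), gPSC 1 at 18 (19.6%) and gPSC 2 at 24 (26.1%). The corresponding shares over the whole series were 32.7%, 35.5%, 42.1% and 37.7%, higher in each line than at this locus. At this locus GSC had 16 pairs of bases 1 bp apart that were both hyper, and no line had such a pair. This holds down the shares here, and its part in the difference from the series was not tested. From the side of the lines, 85.7% of the hyper positions of iPSC 1, 83.3% of iPSC 2, 90% of gPSC 1 and 92.3% of gPSC 2 were hyper in GSC. Over the whole series these shares were 58.5%, 57.2%, 66.1% and 57.4%, lower in each line than at this locus. GSC was hyper at a larger share of positions here than in the series (81.4% against 47.3%), and its part in these shares was not tested. At the shared positions the mean difference was 51.2 points in iPSC 1 against 83.5 in GSC, 42.0 in iPSC 2 against 69.5, 43.9 in gPSC 1 against 73.4, and 46.4 in gPSC 2 against 72.1. The line was below GSC at 11 of 12, 23 of 25, 16 of 18 and 20 of 24 of them. A position enters these counts only if the line differs from the reference by at least 25 points, all tables share the reference, and GSC has 1 library, so no test was made. Hyper in GSC and listed in no line were 47 positions, 6 of the 8 upstream ones, 34 of the 70 in the gene body and 7 of the 14 downstream. Positions hyper in GSC and hypo in a line, such as that at 1203 bp, are not among them. Hyper in all 5 libraries were 4 positions, at 253, 1767, 2631 and 8353 bp after the start, and none upstream.

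Comparing iPSC with gPSC asks whether the route to pluripotency, with or without introduced factors, shows in the state of the locus. In the gene body the iPSC lines had 18.5 ± 9.2 hyper positions and the gPSC lines 17.0 ± 2.8 (mean ± SD, n = 2 lines of each kind), a difference of 1.5 with overlapping lines (two-sided exact permutation test, p = 1). Hypo positions numbered 7.5 ± 2.1 in iPSC lines and 4.5 ± 2.1 in gPSC lines (exact permutation test, p = 0.667). The mean difference from the reference was 16.6 ± 11.6 points in iPSC lines and 28.6 ± 4.6 in gPSC lines, and both iPSC values were lower than both gPSC values (exact permutation test, p = 0.333). This p is the smallest that 2 lines against 2 allow. Upstream, 1.0 ± 1.4 hyper positions in iPSC and 1.5 ± 0.7 in gPSC gave an exact permutation p of 1, as did the 0.5 hypo positions of iPSC against 0 in gPSC and the mean differences, which rest on 1 or 2 positions a line. After Benjamini-Hochberg adjustment over the 6 comparisons each p was 1. No difference between the kinds was detectable with this number of lines. The spread between the iPSC lines was larger than the difference of the hyper counts, since iPSC 1 had 12 and iPSC 2 had 25. Both iPSC lines were hyper at 8 shared positions of the window, of 14 in iPSC 1 and 30 in iPSC 2. Both gPSC lines were hyper at 12, of 20 in gPSC 1 and 26 in gPSC 2. No share over the whole series was set beside these counts. No position was hyper in both lines of a kind and hypo in a line of the other.

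Among all genes, the Pou5f1 window ranked high for the number of listed positions in GSC. Of 27819 windows of the same kind (gene plus 5000 bp on each side) with a listed position, 27, Pou5f1 included, held 92 or more hyper positions of GSC, and the median was 4. Per kb of window Pou5f1 had 6.24 hyper positions of GSC, more than any other window, with a median of 0.11 over all windows. Both bases of a pair 1 bp apart were counted, in this window and in the others. The windows of its neighbours overlap it and stood among the next highest, Gm32362 with 5.90 and Tcf19 with 4.61 per kb, as did Gm13205, a predicted gene on chromosome 4, with 5.19. Positions listed in any table were dense here as well, at 7.66 per kb, a value that 5 windows reached. The share of these that were hyper in GSC, 81.4%, was reached by 675 of the 14052 windows with at least 10 listed positions (4.80%). In the lines, 5.23% of windows held at least the 14 hyper positions of iPSC 1, 0.974% the 30 of iPSC 2, 3.07% the 20 of gPSC 1 and 1.59% the 26 of gPSC 2. By the rule of at least 3 positions of a direction that make up at least 80% of those listed, in both lines of a kind, Pou5f1 was called hyper in GSC and called in neither direction in iPSC and gPSC. Of the positions listed in a line, iPSC 1 had 56.0% hyper, iPSC 2 81.1%, gPSC 1 80% and gPSC 2 78.8%, so gPSC missed the call by 1 line just below the limit. Without positions within 50 bp of an opposite one the shares were 93.3% in gPSC 1 and 94.7% in gPSC 2. Pou5f1 was then called hyper in gPSC too, as were 25.9% of windows. With no position left out, the rule called 16.7% of windows hyper in iPSC, 22.0% in gPSC and 40.3% in GSC, and 0.191%, 0.155% and 2.12% hypo.

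**Figure D5:**
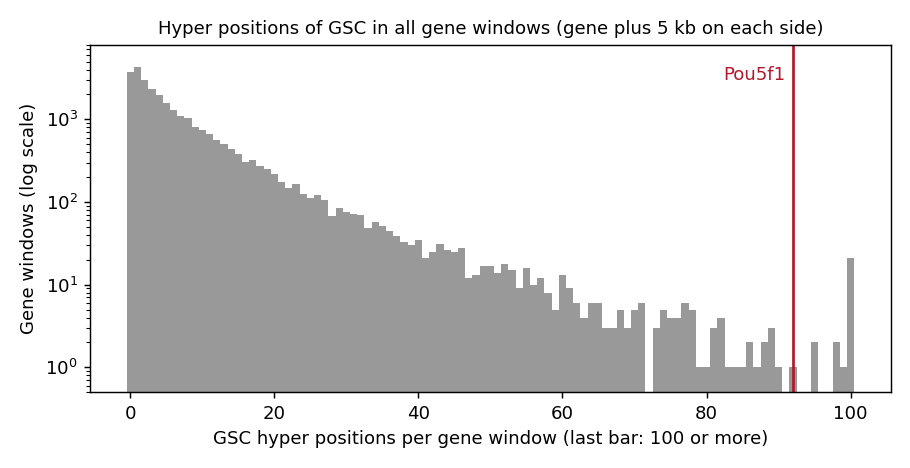
Number of gene windows (vertical axis, log scale) by their count of hyper positions in GSC (horizontal axis), over 27819 windows with a listed position; the last bar holds windows with 100 or more. The red line marks Pou5f1 at 92.

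Of 12 core partners of Pou5f1 in the pluripotency network, 11 had a listed position, and 8 were called hyper and 1 hypo in GSC, where 40.3% of all windows were hyper and 2.12% hypo. None was called in iPSC, against 16.7% of windows hyper, and 3 were called hyper in gPSC (Sall4, Esrrb and Nacc1), against 22.0%. The gPSC count was 5 with calls from at least 1 position, a setting that called 40.2% of windows hyper in gPSC. It was also 5 without positions within 50 bp of an opposite one, where 25.9% of windows were called. The median member had 14 hyper positions in GSC, against 4 over all windows. A window with fewer than 3 cannot be called, so the shares called are not matched for the number of listed positions. Esrrb, an orphan nuclear receptor of naive pluripotency, held 14 hyper and 10 hypo positions in iPSC 1, 16 and 7 in iPSC 2, 15 and 3 in gPSC 1, 17 and 1 in gPSC 2, and 54 and 6 in GSC. Sall4, a zinc finger protein that activates Pou5f1, held 2 hyper and 1 hypo position in iPSC 1, 12 and 4 in iPSC 2, 9 and 0 in gPSC 1, 11 and 2 in gPSC 2, and 31 and 1 in GSC. Klf4, a Krüppel-like factor used in reprogramming, was listed at 0 positions in iPSC, at 1 hyper position in each gPSC line and at 22 in GSC, with a mean of 60.9 points. Tbx3, a T-box factor, held 8 and 7 hyper and 8 and 8 hypo positions in the iPSC lines, 3 and 17 hyper and 7 and 15 hypo in the gPSC lines, and 49 hyper and 2 hypo in GSC. Sox2, the DNA-binding partner of Oct4, held 2 hyper and 2 hypo positions in iPSC 1, 8 and 11 in iPSC 2, 1 and 2 in gPSC 1, 2 and 2 in gPSC 2, and 7 and 1 in GSC. Nanog had no listed position in any library. The 1 partner called hypo in GSC, Zfp281, held 7 hypo positions there.

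Known targets of Oct4 and markers of pluripotent cells were called hyper in GSC for 6 of the 14 with a listed position, from a list of 16, a share near the 40.3% of all windows. None was called in iPSC (16.7% of windows) and 1, Tdgf1, was hyper in gPSC (22.0% of windows). The gPSC count was 3 with calls from at least 1 position (40.2% of windows) and 0 with flanks of 2000 bp (20.0%). Nacc1, Zfp281 and Tdgf1 are named here after their values were seen. The median target or marker had 3 hyper positions in GSC, below the 4 over all windows. Zfp42, the Rex1 zinc finger protein, held 1 hyper and 1 hypo position in iPSC 1, 8 and 3 in iPSC 2, 5 and 1 in gPSC 1, 1 and 0 in gPSC 2, and 19 and 0 in GSC, with a mean of 77.0 points in GSC. Gdf3, a TGF-beta family ligand, was not listed in iPSC 1 and gPSC 2, had 1 hypo position in iPSC 2 and 4 hyper and 4 hypo positions in gPSC 1, and held 14 hyper and 0 hypo positions in GSC. Lefty2, a secreted Nodal antagonist, held 7 hyper positions in GSC and Lin28a, an RNA-binding protein that blocks let-7 maturation, 5 beside 1 hypo position.

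Of 10 regulators that bind upstream of Pou5f1, all with listed positions, 2 were called hyper in GSC, against 40.3% of all windows. They were Nr2f1 and Nr2f2, which encode the COUP-TF repressors, with 4 hyper and 1 hypo position each. With flanks of 2000 bp the count was 1, against 37.3% of windows. Sp1, which binds GC boxes, was called hyper in gPSC (3 positions in each line, with 22.0% of all windows called), and had 5 hyper and 12 hypo positions in GSC. The other POU genes were called hyper in GSC for 3 of 13 with a listed position, Pou2f2, Pou2f3 and Pou6f1, against 40.3% of all windows, and hypo for Pou4f2 (2.12% of windows). The hyper count was 6 with calls from at least 1 position, a setting that called 59.0% of windows. It was also 6 without positions within 50 bp of an opposite one, where 45.6% of windows were called. Pou2f2 and Pou6f1 were hyper in iPSC as well (16.7% of windows), and Pou2f3 and Pou6f1 in gPSC (22.0%). Pou6f1 held 14 and 8 hyper positions in the iPSC lines, 11 and 15 in the gPSC lines and 25 in GSC.

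The genes whose windows were most like that of Pou5f1 were sought by the net share of hyper positions (hyper minus hypo, over positions listed in any table) in the 5 libraries. For Pou5f1 it was 2.65% in iPSC 1, 20.4% in iPSC 2, 13.3% in gPSC 1, 16.8% in gPSC 2 and 80.5% in GSC. Among 11032 windows with at least 10 listed positions, leaving out predicted genes (Gm and Rik names) and windows that overlap that of Pou5f1, the nearest by Euclidean distance over the 5 libraries were Pdzd3 (0.0691), Dnajb5 (0.0706), Hspa12b (0.0774), Foxr1 (0.0820) and Dcaf4 (0.0906). They held 9 to 25 hyper positions in GSC, against 92 at Pou5f1. Pdzd3 (chromosome 9), the nearest, had a net share of 6.45% in iPSC 1, 16.1% in iPSC 2, 12.9% in gPSC 1, 12.9% in gPSC 2 and 80.6% in GSC.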

How the data were processed

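Genomic DNA of 6 cultured lines was profiled by reduced representation bisulfite sequencing. Per the submitters' processing notes, the tools were methylKit, GATK, Bismark and Bowtie2, and the build was GRCm38 (also given as mm10). No version or role is stated there. Each of the 10 tables deposited by the authors gives, per listed position, a p-value, a q-value and a methylation difference in percentage points, and the values found in them reach a q of 0.00999988 and a smallest difference of 25.0 points. The deposited tables hold no read counts, so the depth is unknown and no interval was computed. That the ESC library was the reference is an inference from its being the only sample without tables.

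Positions were assigned by coordinate to the Pou5f1 span of the RefSeq gene table (GRCm38.p6) with 5000 bp on each side, and likewise to 34631 gene windows. A window was called where at least 3 positions of a direction made up at least 80% of those listed, in both lines of a kind. Lines of a kind were compared by a two-sided exact permutation test with Benjamini-Hochberg adjustment over 6 comparisons (python 3.11.15, numpy 2.4.6, pandas 2.3.3, scipy 1.17.1). The lines are independent by the design text. Their numbers are names and pair no samples. The counting and calling were tested on simulated tables. The members and gene lists were chosen with earlier results of these data known. From each list up to 4 called members with the most listed positions in GSC were named, with Sox2, Nanog, the overlapping genes and the 5 most alike windows. Alternatives were other thresholds, other flanks, positions near an opposite one left out, each line left out and a replicate block. Counting positions 1 bp apart with the same direction once and a gene start moved 500 bp upstream were chosen after seeing the data.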

Additional observations from a re-analysis of the deposited data

Results flagged for a closer look

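At 2 positions of the gene body both iPSC lines were listed below the reference and GSC above it. At 1214 bp after the start the difference was −52.8 points in iPSC 1, −31.7 in iPSC 2 and 43.3 in GSC. At 3960 bp it was −36.8 points in iPSC 1, −48.7 in iPSC 2 and 40.3 in GSC, and gPSC 2 was below the reference there too (−37.0 points). In lines listed at the adjacent base, the direction there was the opposite: at 1215 bp iPSC 2 had 34.7 points, and at 3959 bp iPSC 1 had 32.0, iPSC 2 43.8 and gPSC 2 35.7 points, while GSC was above the reference at both bases of each pair. The difference between iPSC and GSC was not tested, since GSC has 1 library.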

How the results depend on the processing

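With differences of at least 50 points, gene body hyper positions numbered 7 in iPSC 1, 3 in iPSC 2, 5 in gPSC 1, 6 in gPSC 2 and 46 in GSC, and hypo positions 5, 1, 0, 2 and 0. The gene body mean became 56.2 points in gPSC 1 and 75.3 in GSC. Upstream gPSC 1 and gPSC 2 had 0 hyper positions. Downstream hyper counts were 1, 1, 0, 1 and 6, and hypo counts 1 in gPSC 1 and 0 in gPSC 2. GSC hyper positions also hyper in a line were 7, 5, 5 and 7. iPSC minus gPSC turned to 1.0 upstream and −0.5 in the gene body for hyper counts.

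With q of at most 0.001, gene body hyper positions were 4 in iPSC 1 and 5 in gPSC 1, and hypo positions 5 in iPSC 1, 1 in gPSC 1, 3 in gPSC 2 and 0 in GSC. The gene body mean of iPSC 1 turned to −7.79 points. Upstream iPSC 2 kept 1 hyper and iPSC 1 had 0 hypo positions, and iPSC minus gPSC turned to 13.4 points for the upstream mean. Downstream hyper counts were 1 in iPSC 1 and 3 in gPSC 2, and hypo counts 0 in iPSC 1, 1 in gPSC 1 and 0 in gPSC 2. For iPSC 1, gPSC 1 and gPSC 2, the positions shared with GSC were 4, 8 and 15.

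Leaving out positions within 1 bp of an opposite one, gene body hypo counts were 1 in iPSC 2, 0 in gPSC 1, 1 in gPSC 2 and 0 in GSC, and the means of those 3 lines 36.6, 45.7 and 41.2 points. gPSC 1 had 1 hypo position downstream. Within 50 bp, hyper counts were 16 in iPSC 2 and 11 in gPSC 2, hypo counts 0 in iPSC 2, gPSC 1, gPSC 2 and GSC, and means 40.8, 44.7 and 46.6 points in iPSC 2, gPSC 1 and gPSC 2. gPSC 1 again had 1 downstream. Pou5f1 itself was then called hyper in gPSC, as were 25.9% of windows. Of the lists, 5 core partners were then hyper in gPSC. In GSC 1 upstream regulator was hypo, and 6 POU genes were hyper and 2 hypo. Of all windows, this setting called 45.6% hyper and 2.91% hypo in GSC.

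With flanks of 2000 bp, upstream hyper counts were 0 in iPSC 2, gPSC 1 and gPSC 2 and 5 in GSC, and the hypo count of iPSC 1 was 0. Downstream hyper counts were 0, 0, 0, 1 and 2 and hypo counts 0 in every line. 0 targets were hyper in gPSC (20.0% of windows), 1 upstream regulator was hyper in GSC (37.3%) and 2 POU genes hypo in GSC (2.64%). With 10000 bp, upstream hyper counts were 6 in iPSC 2, 3 in gPSC 1, 5 in gPSC 2 and 19 in GSC, hypo counts 4 in iPSC 1 and 1 in GSC, and gPSC 2 had 2 hypo positions downstream. A gene start moved 500 bp upstream left GSC 4 upstream hyper positions. Counting positions 1 bp apart with the same direction once left GSC 55 hyper positions in the gene body. Each line kept its main count, since no line had such a pair. With calls from at least 1 position, 5 core partners, 3 targets and 5 POU genes were hyper in gPSC (40.2% of windows). In GSC 2 core partners were then hypo (4.77% of windows) and 6 POU genes hyper (59.0%).

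Leaving out a line moved iPSC minus gPSC between −1.5 and 0.5 upstream hyper positions, 0 and 1 upstream hypo positions, −112 and 17.0 points of the upstream mean, −5.0 and 8.0 gene body hyper positions, 1.5 and 4.5 hypo positions and −20.2 and −3.84 points of the gene body mean. It turned the sign of upstream hyper counts (0.5) and of the upstream mean (17.0) without iPSC 1, and of gene body hyper counts without iPSC 2 (−5.0) and without gPSC 1 (−0.5). The replicate block gave the same differences, −0.5, 0.5, −47.5, 1.5, 3.0 and −12.0, with exact sign-flip permutation p = 0.5 for the gene body mean and p = 1 otherwise. The line numbers pair no samples. The other 288 values kept their direction and size within the limits set. For the changes above, the cause was not tested beyond the smaller or larger number of positions or lines that each setting itself leaves.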
